A study of Mus musculus with 4 samples.

Results

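XN1 is a neural stem cell (NSC) line derived from mouse epiblast stem cells (EpiSCs), the cultured counterpart of the postimplantation epiblast. All 3905 cells of its normalized table were taken as XN1, of 15255 cells in the 4 lines measured, and they were compared with the tables of XN4 (3927 cells), KN1 (3975 cells), and CN4 (3448 cells) over the autosomal genes. Every line came from the same 129/Sv EpiSC line, was kept with EGF and FGF2 at 10 ng/ml each, and was measured as 1 whole-transcriptome library on the BD Rhapsody, a microwell platform that tags the mRNA of each cell with its own barcode. XN1 was derived with 10 µM XAV939, a tankyrase inhibitor used as a Wnt antagonist, bought from supplier A, whose compound formed crystals in the medium at this dose. The paper infers that these crystals lowered the effective concentration of XAV939, which was not tested here. XN4 was derived with 10 µM XAV939 from supplier B, without crystals, KN1 with neither a Wnt antagonist nor an agonist, and CN4 with 2 µM CHIR99021, a GSK3 inhibitor used as a Wnt agonist. By the study's record of derivations, XN1 and KN1 came from the same derivation experiment, and XN4 and CN4 from a different one by another experimenter. Supplier, experiment, and experimenter therefore cannot be told apart between XN1 and XN4. Between XN1 and CN4, the same holds for Wnt input, experiment, and experimenter. With 1 library per line, the line and the library cannot be told apart, no test between lines was possible, and the intervals given are 95% exact Poisson or Clopper-Pearson intervals that cover counting error only.

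Canonical Wnt signaling stabilizes beta-catenin by disabling a complex of Axin, Apc, and Gsk3b. Tankyrases mark Axin for degradation, so that their inhibition lowers the signal, whereas inhibition of Gsk3b raises it. In the neural plate, low Wnt signaling is associated with anterior identity, marked by Otx genes, and higher signaling with posterior identity, marked by Hox genes. The Wnt inputs were applied to obtain NSC lines of different anteroposterior character, and the comparisons below address how XN1 differed from the lines made with other inputs or with the same compound from another supplier.

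A level is the number of reads of a gene per 10000 reads of a line, not divided by gene length, so levels are compared between lines and not between genes. The normalized tables held 19271688 reads in XN1 and between 22947874 and 41539513 in the other lines. The values are reads, not molecules, and reads of 1 molecule are not independent. For shares of cells, every cell was thinned at random to 3200 reads, which left 3129 XN1 cells (776 were shallower), 3384 in XN4 (543), 3396 in KN1 (579), and 3158 in CN4 (290), and a gene with at least 1 read was called captured. The median number of genes captured per thinned cell was 1808 in XN1, 1647.5 in XN4, and 1847 in CN4, but 766 in KN1, a gap that thinning to equal reads did not remove and that bears on the shares of cells in KN1. The nuclear RNA Malat1 took 0.53% of the reads of XN1 and 3.20% of those of KN1.

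XN1 cells carried neural stem cell markers. Sox2, a transcription factor of neural progenitors, was captured in 54.4% of XN1 cells at a level of 3.05, beside 0.0125 in XN4, 1.17 in KN1, and 5.84 in CN4. The intermediate filament gene Nes was at 3.72 in XN1, 0.254 in XN4, 6.55 in KN1, and 5.14 in CN4. The glutamate transporter gene Slc1a3 was at 9.22, 0.639, 27.2, and 25.5, and Zeb2, a factor of the early neural primordium, at 1.07, 2.47, 2.92, and 1.35, in the same order. In Sox2, Nes, and Slc1a3, XN1 thus resembled KN1 and CN4 more than XN4, in which these 3 were low. For Zeb2, XN1 was nearest to CN4, and KN1 was further from it than XN4. Of 8 epiblast genes, 1 was listed in the XN1 table, and its level was 0.0244.

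Of the 5 genes put forward as markers of XN1, Exph5, Clic5, Otx2, and En2 were at least 4-fold higher in XN1 than in each other line, whereas Fabp7 was not. Exph5, at 53301670 to 53377514 on the plus strand of chromosome 9 (GRCm38), encodes exophilin 5, an effector of the vesicle trafficking GTPase Rab27. Its level was 3.25 (6271 reads) in XN1, 0.00313 (13 reads) in XN4, and 0.0167 (46 reads) in KN1, and it was not listed in the CN4 table, where the same cells held 6 reads. It was captured in 55.0% of thinned XN1 cells (interval 53.2% to 56.8%), beside 0.118% in XN4 and 0.294% in KN1. The log2 ratio of levels was 10.02 (9.25 to 10.93) over XN4 and 7.61 (7.19 to 8.06) over KN1. Clic5, at 44188584 to 44280172 on the plus strand of chromosome 17, encodes a chloride intracellular channel protein associated with the actin cytoskeleton. Its level was 4.22 in XN1 (51.1% of cells), 0.00578 in XN4 (0.177%), 0.0385 in KN1 (0.501%), and 0.0357 in CN4 (1.08%), which put XN1 110-fold above the highest other line. Each of the 2 genes was thus captured in over 50% of XN1 cells and in at most 1.08% of the cells of another line.

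Exph5 and Clic5 had the largest ratios of XN1 to the highest other line, and no annotated gene overlapped either of them. The 250 bases before their transcription starts are shown for that reason. They are from RefSeq for GRCm38.p6, 5′ to 3′ on the plus strand, chr9:53301420-53301669 for Exph5 and chr17:44188322-44188571 for Clic5. Capitals mark a match to CTTTGA, a core of TCF/LEF sites, or to its reverse complement.
Exph5: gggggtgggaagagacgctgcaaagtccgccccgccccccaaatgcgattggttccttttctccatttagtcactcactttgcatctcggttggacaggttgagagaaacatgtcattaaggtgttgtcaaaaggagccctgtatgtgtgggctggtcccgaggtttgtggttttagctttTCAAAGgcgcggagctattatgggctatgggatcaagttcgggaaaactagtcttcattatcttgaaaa
Clic5: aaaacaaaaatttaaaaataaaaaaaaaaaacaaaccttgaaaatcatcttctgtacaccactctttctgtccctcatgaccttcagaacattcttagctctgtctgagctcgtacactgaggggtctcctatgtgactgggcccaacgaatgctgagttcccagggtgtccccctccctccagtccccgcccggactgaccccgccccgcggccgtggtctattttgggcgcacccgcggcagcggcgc
The 3 motifs searched on both strands of such windows were CTTTGA, the Otx homeodomain site TAATCC, and the octamer of Pou factors, ATGCAAAT. The Exph5 window held 1 match, the reverse complement of CTTTGA from base 182, and the Clic5 window held none. CTTTGA or its reverse complement lay in 13.8% of 31365 autosomal windows, and TAATCC or its reverse complement in 6.26%. Among the 68 windows found for 47 of the genes higher in XN1 than in all 3 other lines, 5 held CTTTGA (7.35%), 3 held TAATCC (4.41%), and 0 held the octamer, which 1.62% of all windows held. A match of letters does not show that a factor bound there.

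Otx2 and En2 encode homeodomain factors of the midbrain and of the midbrain-hindbrain boundary. The Otx2 level was 0.255 in XN1 and 0.00457 in XN4, and it was not listed in KN1 and CN4. It was captured in 7.13% of XN1 cells and 0.118% of XN4 cells, and the same CN4 cells held 1 read of it. The En2 level was 0.477 in XN1 (13.0% of cells), 0.0137 in XN4 (0.296%), and 0.0305 in CN4 (0.855%), and it was not listed in KN1. Fabp7, a fatty acid binding protein of radial glia, was captured in 84.2% of XN1 cells at a level of 11.4. It was higher still in CN4 (41.2, 98.1% of cells; log2 ratio of XN1 over CN4 −1.86), was at 3.86 in KN1 (27.0%), and had 0 reads in the cells of XN4, where 3 reads would have given a level of 0.000722. Fabp7 therefore separated XN1 from XN4, not from CN4.

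Genes were compared where they were captured in at least 5% of thinned cells of a line in the comparison, and a 4-fold difference of levels was taken as the mark of a clear difference. Against all 3 other lines at once, 9188 genes were compared, of which 70 (0.762%) were at least 4-fold higher in XN1 and 53 (0.577%) at least 4-fold lower. In this comparison, a gene not listed in a table counted as below the others, although the XN4 table left out 33 genes that 10 or more of its cells captured. In the comparisons of XN1 with a single line, only genes listed in both tables were compared. Genes absent from 1 of them, such as Exph5 against CN4 or Olig2 against XN4, were left out there. Of the 70 higher genes, 44 were listed in all 4 tables. Of the 53 lower genes, 24 were listed in all 4 tables and 29 were not listed in XN1. When the reads of the same XN1 cells in the table of all reads were used for those 29, 13 of them remained 4-fold lower.

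**Figure D1:**
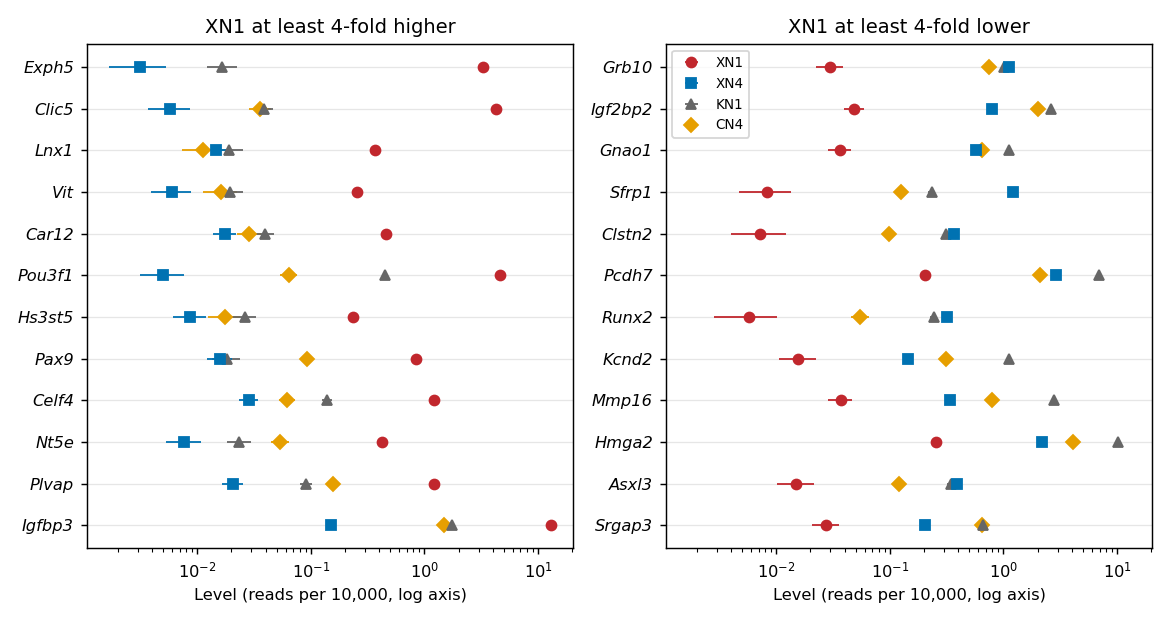
Levels in reads per 10000 (log axis) of Exph5 and of the 12 genes with the largest ratio of XN1 to the highest other line, 1 of which is not shown (left), and of the 12 with the largest ratio of the lowest other line to XN1 (right), among genes listed in all 4 tables except Exph5, which CN4 does not list. Points are lines, 1 library each, and bars are 95% Poisson intervals. XN1 stands at 3.25 for Exph5 with XN4 at 0.00313, and at 0.0296 for Grb10 with the other lines between 0.747 and 1.11.

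Among the genes higher in XN1 were transcription factors of development. Pou3f1, a Pou factor of the late epiblast and neural plate, was at 4.64 in XN1, 0.00506 in XN4, 0.45 in KN1, and 0.0641 in CN4, and was captured in 54.6% of XN1 cells. Pax9, a paired box factor best known in pharyngeal and skeletal development, was at 0.839, 0.0159, 0.0181, and 0.0933. XN1 was thus 10.3-fold above the next line for Pou3f1 and 9.0-fold for Pax9. Otx1, a relative of Otx2 from the forebrain list, was at 0.409 in XN1 (10.6% of cells) and 0.0116 in XN4, and was not listed in KN1 or CN4.

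Among the rest of the genes with the largest ratios, Igfbp3, which binds insulin-like growth factors, was at 12.9 in XN1, 0.151 in XN4, 1.76 in KN1, and 1.48 in CN4, and was captured in 94.1% of XN1 cells. The next line, KN1, was 7.35-fold lower for Igfbp3. Of the further genes, 6 were between 7.67 and 19.1-fold above the next line: Lnx1, a ubiquitin ligase (0.368 in XN1), Vit, an extracellular matrix protein (0.256), Car12, a carbonic anhydrase (0.458), Hs3st5, a heparan sulfate sulfotransferase (0.236), Nt5e, which makes adenosine outside the cell (0.423), and Plvap, a protein of endothelial diaphragms (1.203). Celf4, an RNA binding protein of neurons, was at 1.22 in XN1 and at most 0.14 elsewhere. Lnx1 overlaps Fip1l1, Plvap overlaps Gtpbp3, and Pax9 overlaps Slc25a21, each on the opposite strand.

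Further genes of the 70 were chosen after their values were seen and stand for no tested theme. Fth1, the ferritin heavy chain, took 0.722% of XN1 reads, a level of 72.2, beside 13.2 in XN4, 3.66 in KN1, and 9.32 in CN4. Trp53i11 was at 9.55 in XN1 and at 0.257, 1.45, and 0.596 in XN4, KN1, and CN4. The lipopolysaccharide coreceptor gene Cd14 was at 0.986 in XN1 (16.7% of cells), 0.0313 in XN4, and 0.0301 in CN4, and the acute phase inhibitor gene Serpina3n at 0.406, 0.0125, and 0.0153, and neither was listed in KN1. The complement gene C4b was at 0.313 in XN1, 0.0323 in XN4, and 0.0139 in CN4. Tslp, an epithelial cytokine that the naming rule gave for the comparison with CN4, was at 1.505 in XN1 (23.7% of cells), 0.246 in XN4, and 0.0318 in CN4.

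Grb10 had the largest ratio of the lowest other line to XN1 among genes listed in all 4 tables. Grb10, an imprinted adaptor that restrains insulin and IGF receptor signaling, was at 0.0296 in XN1, 1.11 in XN4, 1.01 in KN1, and 0.747 in CN4, and was captured in 0.639% of XN1 cells. The RNA binding protein gene Igf2bp2 was at 0.0488 in XN1, 0.792 in XN4, 2.60 in KN1, and 2.02 in CN4. Hmga2, a chromatin protein of fetal stem cells, was at 0.256, 2.20, 10.1, and 4.07, with 6.14% of XN1 cells capturing it and 54.0% of CN4 cells. XN1 was 25.3-fold, 16.2-fold, and 8.59-fold below the next line for these 3 genes. Lin28b, an RNA binding protein of fetal stem cells that was chosen after its values were seen, was at 0.00623 in XN1, 0.0111 in XN4, and 0.0118 in CN4, and stood out only in KN1, at 1.82.

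Sfrp1, a secreted Wnt inhibitor, was at 0.0083 in XN1, 1.21 in XN4, 0.233 in KN1, and 0.125 in CN4, a 15.0-fold difference from the nearest line. The G protein subunit gene Gnao1 was at 0.0363 in XN1 and between 0.578 and 1.118 in the other lines, the protocadherin gene Pcdh7 at 0.202 and between 2.09 and 6.93, and the potassium channel gene Kcnd2 at 0.0156 and between 0.146 and 1.123. The remaining 5 of the 12 were Clstn2, a synaptic calsyntenin, Runx2, a bone transcription factor, Mmp16, a membrane metalloproteinase, Asxl3, a Polycomb-associated protein, and Srgap3, a cytoskeletal regulator of neurites, with XN1 levels between 0.00571 and 0.0368. Runx2 overlaps Supt3 and Hmga2 overlaps antisense transcripts on the opposite strand.

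Of the 70 higher genes, a thinned XN1 cell captured a median of 15 (5th to 95th percentile 9 to 22, lowest 3, highest 29), while XN4 and KN1 cells captured a median of 1 and CN4 cells a median of 3. The highest number in a cell was 8 in XN4, 7 in KN1, and 12 in CN4, with 60, 50, and 66 of the 70 genes listed in their tables. Because these genes were chosen on the same cells, the distance between lines is a description. The spread within XN1 was also read from the 10547 XN1 cells of the table of all reads that the normalized table leaves out. Of those, 8518 had at least 3200 reads and captured a median of 15 of the 70 genes (5th to 95th percentile 9 to 22).

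**Figure D2:**
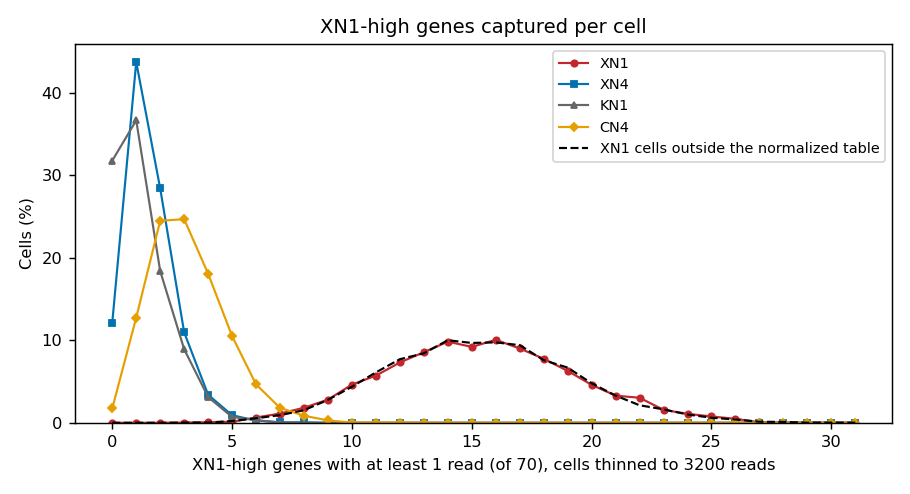
Share of cells (%) by the number of the 70 XN1-high genes captured per cell after thinning to 3200 reads. XN1 peaks around its median of 15, as do the XN1 cells outside the normalized table (dashed), while the medians of XN4, KN1, and CN4 are 1, 1, and 3.

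Levels in the XN1 cells outside the normalized table were close to those inside it. They were 3.27 for Exph5, 4.26 for Clic5, 0.269 for Otx2, 0.491 for En2, 11.4 for Fabp7, 4.47 for Pou3f1, and 12.8 for Igfbp3. With these cells in place of the first, 42 of the 44 higher genes listed in all tables and 21 of the 24 lower genes were still at least 4-fold apart from all 3 lines, and all 44 and 24 kept their direction. These cells are of the same library, and their agreement covers the drawing of cells only. Exph5, Clic5, Pou3f1, and Igfbp3 were captured together in 497 XN1 cells (15.9%), and 37.4% captured 3 of the 4. None of the 4 was captured in 0.927% of XN1 cells. Of the XN1 cell indices, 54 also occurred in another table, and leaving out those cells gave 71 higher and 53 lower genes.

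XN1 and XN4, derived with the same nominal dose of XAV939 from different suppliers, differed in genes of neural and of connective tissue, among others. Of 8480 genes compared, 509 (6%) were at least 4-fold higher in XN1 and 508 (5.99%) lower, and the median log2 ratio was −0.06. Gpm6a, a neuronal membrane glycoprotein, was at 8.74 in XN1 and 0.00433 in XN4, and Camk2b, a calmodulin-dependent kinase of neurons, at 2.67 and 0.00313. For Sox2 the log2 ratio was 7.93 (7.53 to 8.35). The oligodendrocyte lineage factors Olig1 and Olig2 were captured in 84.5% and 83.6% of XN1 cells at levels of 9.29 and 8.90, and had 0 reads in the same XN4 cells. Bcan, a brain proteoglycan, was at 4.18 in XN1 and had 4 reads in XN4. In KN1 and CN4, Bcan was at 5.70 and 4.73, Olig1 at 2.23 and 8.92, and Olig2 at 3.10 and 8.96, so that among these 3 genes only Olig1 was past 4-fold, against KN1 (4.16-fold). Of the 10 oligodendrocyte precursor genes on the list, 2 were compared with XN4, which does not list Olig1 or Olig2. Sox8, a SoxE factor, was higher in XN1 (0.957 and 0.159), and Pdgfra, the PDGF receptor of precursors and of connective tissue cells, was lower (0.333 and 2.46). Against KN1, 1 of 4 was higher (Olig1), and against CN4, 1 of 6 was higher (Pdgfra) and 1 lower (Lhfpl3). Of all genes, 7.65% were higher and 7.88% lower against KN1, and 2.55% and 1.56% against CN4.

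In the other direction, XN4 held transcripts of connective tissue that were low in XN1. Apod, a lipid carrier, was at 0.00675 in XN1 and 29.9 in XN4 (log2 ratio −12.11), and the matrix proteoglycan gene Dcn at 0.0166 and 12.2. The collagen genes Col1a1, Col6a3, and Col15a1 were at 0.00623, 0.00778, and 0.015 in XN1 and at 3.56, 4.29, and 5.43 in XN4. Of the list of 16 mesenchymal and connective tissue genes, 10 were compared, of which 9 were lower in XN1 and 0 higher, with a median log2 ratio of −4.40, beside 5.99% of all genes lower. The gene compared that was not past 4-fold was Col1a2, at 0.767 in XN1 and 1.32 in XN4. Thy1, another gene of the list, was not compared pairwise because XN4 does not list it, and counted as higher in XN1 than in all 3 lines. Col3a1, which XN1 does not list, counted as lower than in all 3. They were 1 higher and 1 lower of 14 genes of the list in that comparison, beside 0.762% and 0.577% of all genes. The summed level of this list was 4.31 in XN1, 120 in XN4, 1.35 in KN1, and 3.44 in CN4, and the part of this high content of XN4 in the other differences from XN4 was not tested. Against KN1, 3 of 5 genes of this list were higher in XN1 (Col6a1, Fn1, and Thy1), beside 7.65% of all genes. Thy1, a surface glycoprotein of neurons and fibroblasts, was at 0.737 in XN1 (15.0% of cells), 0.0221 in KN1, and 0.0514 in CN4, with 14 reads in the same XN4 cells. Against CN4, Thy1 was higher and Prrx1, a factor of mesenchyme, lower (0.132 and 0.997) among 7 compared. Of 24 radial glia and astrocyte genes, 19 were compared, and 7 were higher in XN1 (Slc1a3, Nes, Ptprz1, Fabp5, S100b, Slc1a2, and Tnc) and 0 lower, with a median of 1.02, beside 6% of all genes higher and 5.99% lower. Against KN1, 5 of 21 were higher (Fabp5, Sparcl1, Slc1a2, Clu, and Apoe) and 2 lower (Hes5 and Tnc), with a median of 0.64, beside 7.65% and 7.88% of all genes.

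Against KN1, made without a Wnt antagonist or agonist, XN1 differed by gene span, the length from the start to the end of a gene with its introns. Of 7991 genes compared, 611 (7.65%) were at least 4-fold higher in XN1 and 630 (7.88%) lower, with a median log2 ratio of 0.19. The genes were split by span into 4 classes of equal size. The class of the shortest (median 6.92 kb) gave a median log2 ratio of 0.69. In it, 12.5% of genes were at least 4-fold higher in XN1 and 1.55% lower. In the class of the longest (median 134 kb), the median log2 ratio was −0.93, and 3.65% of genes were higher and 23.9% lower. Against XN4 and CN4, 11.8% and 3.88% of the longest class were higher, and 9.53% and 3.16% lower. The medians of the shortest and longest classes were 0.06 and −0.28 against XN4, and −0.04 and −0.13 against CN4. Among genes listed for both lines, the 5 with the largest deficit in XN1 were Ctnna2, Pcdh9, Kcnb2, Cacna1d, and Fam155a. Ctnna2, an alpha-catenin of neurons, was at 0.013 in XN1 and 5.90 in KN1. The protocadherin gene Pcdh9 was at 0.0524 and 16.7, and the potassium channel gene Kcnb2 at 0.0083 and 3.497. The calcium channel gene Cacna1d was at 0.013 and 4.02, and Fam155a, which is part of a sodium leak channel, at 0.00726 and 2.87. The tables of all reads of XN1, XN4, and CN4 count reads in introns, whereas the intron setting behind the KN1 values is not given in the sources used here. KN1 also had the highest share of Malat1 and the fewest genes per cell. The part of these in the differences from KN1, gene span included, was not tested. Shares over all genes set beside the gene lists are not matched for span.

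**Figure D3:**
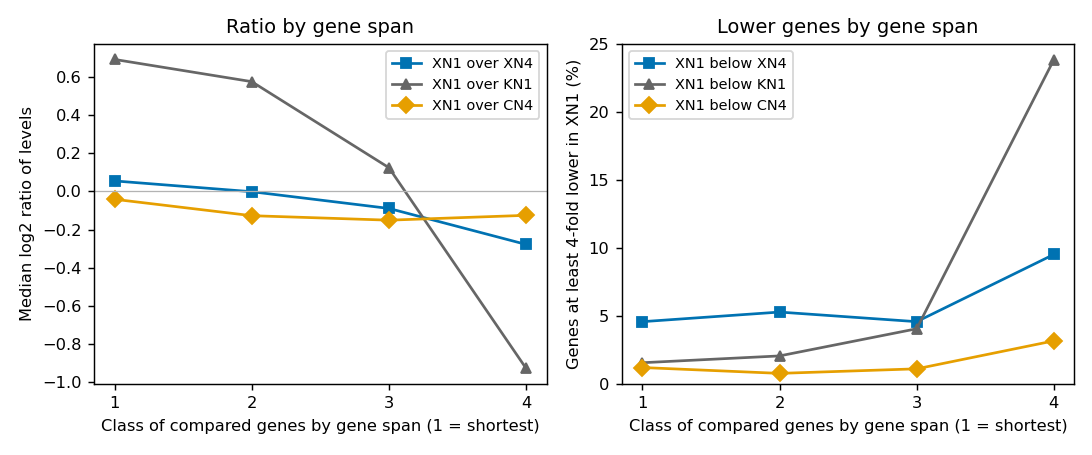
Median log2 ratio of levels of XN1 over each other line (left) and percentage of genes at least 4-fold lower in XN1 (right), by class of the compared genes ordered by gene span, from 1 (shortest) to 4 (longest). Against KN1, the median goes from 0.69 in the shortest class to −0.93 in the longest, and the percentage lower from 1.55 to 23.9.

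Exph5 and Clic5 had the largest ratios of XN1 over KN1 among genes listed for both lines, followed by Plin3, Phyh, and Cebpd. Plin3, a lipid droplet protein, was at 0.844 in XN1 and 0.0116 in KN1. Cebpd, a transcription factor of acute responses, was at 1.24 and 0.0229, and Phyh, a peroxisomal enzyme, at 0.624 and 0.0109. KN1 was the lowest line for these 3 genes, and XN4 and CN4 were at 0.126 or above. Of 15 interferon response and antigen presentation genes, 9 were compared with KN1, of which Ifi27, B2m, H2-K1, and H2-D1 were among those higher in XN1 and 0 were lower, with a median log2 ratio of 2.20, beside 7.65% of all genes higher and a median of 0.19. Against XN4 the same list had 0 higher and 2 lower of 10 (Irf9 and Ifit3), with a median of −1.1, beside 5.99% of all genes lower. Against CN4 it had 0 of 9 past 4-fold, with a median of 0.79, beside 2.55% of all genes higher and 1.56% lower. Against all 3 lines at once, 0 of 12 were higher. In that comparison Ifit1, which XN1 does not list, counted as lower, beside 0.577% of all genes. Of 7 immediate early genes compared with KN1, 3 were higher in XN1 (Fos, Junb, and Zfp36) and 0 lower, with a median of 1.35. Against XN4, 0 of 10 immediate early genes were higher and Egr2 was lower (0.055 and 0.265), with a median of −1.43. Against CN4, 0 of 9 were past 4-fold, with a median of −0.71, beside 2.55% of all genes higher and 1.56% lower.

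CN4, derived with the Wnt agonist, was the line nearest to XN1 by the number of genes apart among those listed for both lines. Of 8347 genes compared, 213 (2.55%) were at least 4-fold higher in XN1 and 130 (1.56%) lower, with a median log2 ratio of −0.11. Among genes listed for both lines, Clic5 had the largest ratio of XN1 over CN4, followed by Cst6, Pou3f1, Lcn2, and Tslp. Cst6, a protease inhibitor, was at 0.338 in XN1 and 0.00436 in CN4. Lcn2, an iron carrier of the acute phase, was at 1.37 and 0.0279. Its reads lay in few cells: in the thinned XN1 cells outside the normalized table, 7.08% captured Lcn2 and 23.8% captured Tslp. Exph5 and Otx2, which CN4 does not list, were not ranked. Cst6 and Lcn2 were not particular to XN1, as XN4 was at 0.378 and 4.90. Among the genes with the largest deficit in XN1 were Nell2, a secreted neural protein (0.0166 in XN1 and 2.46 in CN4), Sez6l, a neuronal membrane protein (0.0161 and 1.62), the cadherin gene Cdh11 (0.014 and 1.17), and Lrrtm1, a synaptic protein whose gene lies within Ctnna2 on the opposite strand (0.00778 and 0.41). XN1 and XN4 shared low levels of Nell2 and Sez6l, at most 0.0166 in either.

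Regional identity genes were read from lists along both body axes. Of 14 forebrain genes, 3 were listed in XN1, with a summed level of 0.524 in XN1, 0.204 in XN4, 1.64 in KN1, and 0.0549 in CN4. Otx1 was the one higher in XN1 than in all other lines, and the sum of KN1 was mostly Sp8, at 1.35 there and not listed elsewhere. Of 16 midbrain-hindbrain boundary genes, 9 were listed, with a summed level of 9.24 in XN1, 5.46 in XN4, 2.36 in KN1, and 7.93 in CN4. En1 was at 0.755 in XN1, 0.0246 in XN4, 0.145 in KN1, and 0.827 in CN4, and Spry1, an FGF antagonist, at 2.63, 3.11, 0.54, and 2.45. Gbx2, a factor of the anterior hindbrain, was lower in XN1 (0.0529) than in CN4 (0.508). XN1 thus shared En1 with CN4 while En2 was higher in XN1 alone.

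The Hox genes of XN1 were all of the HoxA cluster. Of the hindbrain class (paralog groups 1 to 4), those listed in XN1 included Hoxa2, Hoxa3, and Hoxa4, at 0.0721, 0.31, and 0.254. Of 4 cervical class genes, Hoxa5 was listed, at 0.868 in XN1 (20.3% of cells), 0.00867 in XN4, 1.81 in KN1, and 1.88 in CN4. Of 12 thoracic class genes, Hoxa7 was listed, at 0.121 in XN1 (3.13% of cells) and 2.37 in both KN1 and CN4, log2 ratios of −4.28 and −4.29. The summed thoracic class level was 0.121 in XN1, 0.416 in XN4, 4.50 in KN1, and 14.6 in CN4. XN1 was also below KN1 and CN4 in the summed hindbrain class (0.664, 2.13, and 3.37) and cervical class (0.868, 3.11, and 4.34). In the hindbrain class, the 2 genes compared with KN1 were both at least 2-fold higher in XN1, with a median log2 ratio of 1.805, beside 0.19 over all genes. The lower sum against KN1 thus came from genes of this class that were not compared. Against CN4, 1 of 3 was at least 2-fold higher and 1 lower, with a median of 0.65, beside −0.11. In the cervical class, genes not listed in XN1 added to the sums of KN1 and CN4. The log2 ratios of Hoxa2 to Hoxa5 over KN1 and CN4 lay between −1.94 and 1.90, so that Hoxa7 was further below both lines than these 4. Hoxa5 overlaps transcripts of Hoxa3 on the same strand, so reads of these 2 may not be separable.

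Of 14 genes of the dorsal and intermediate neural tube, 7 were listed in XN1, with a summed level of 2.28 beside 1.65 in XN4, 1.89 in KN1, and 4.81 in CN4. Pax6, a factor of the dorsal and intermediate neural tube, was at 0.457 in XN1 and 0.00409 in XN4, while KN1 (0.448) and CN4 (0.459) were level with XN1. Irx3 was higher in XN1 (0.623) than in KN1 (0.0726). Dbx2, a factor of intermediate progenitors, was lower (0.069) than in CN4 (0.658). Of 10 ventral genes, 3 were listed (Olig2, Ptch1, and Nkx2-2), with a summed level of 9.95 that was mostly Olig2, beside 0.137 in XN4, 5.33 in KN1, and 10.8 in CN4. Ptch1, the Hedgehog receptor and target, was at 0.736 in XN1, 0.137 in XN4, 1.72 in KN1, and 1.41 in CN4.

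Genes of the Wnt pathway were read because the lines differ by Wnt input. Of 17 Wnt target and feedback genes, 6 were compared with XN4, and 5 were higher in XN1 (Axin2, Tcf7, Ccnd1, Myc, and Tnfrsf19), with a median log2 ratio of 2.66, beside 6% of all genes and a median of −0.06. Against KN1, 2 of 7 were higher (Tcf7 and Ccnd1) and 2 lower (Lgr5 and Znrf3), with a median of 0.34, beside 7.65% and 7.88% of all genes and a median of 0.19. Against CN4, 0 of 8 were higher and 3 lower (Axin2, Nkd1, and Lgr5), with a median of −0.70, beside 1.56% of all genes lower and a median of −0.11. Axin2, a feedback inhibitor and direct target, was at 0.209 in XN1, 0.0301 in XN4, 0.171 in KN1, and 0.949 in CN4. XN1 was thus near KN1 for Axin2, above the other XAV939 line, and below the CHIR99021 line. Ccnd1, a cyclin that growth factors also induce, was at 24.99 in XN1 (95.7% of cells), 2.21 in XN4, 2.79 in KN1, and 13.4 in CN4. Of the 9 tankyrase and destruction complex genes, 0 were past 4-fold against XN4 or CN4, and Btrc, a ubiquitin ligase subunit, was the one lower than in KN1 (0.359 and 1.52), beside 7.88% of all genes. The targets of the inhibitor, Tnks and Tnks2, were at 0.987 and 2.33 in XN1 and at 1.09 and 3.20 in XN4.

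Of 15 Notch pathway genes, 12 were compared with CN4, and 4 were lower in XN1 (the ligand genes Dll1 and Dll3 and the target genes Hes5 and Hey1) and 0 higher, with a median log2 ratio of −1.36, beside 1.56% of all genes lower and a median of −0.11. Against XN4 and KN1, 0 of 7 were higher, and 0 and 2 (Hes5 and Maml2) were lower, where 5.99% and 7.88% of all genes were lower. Hes5 was at 0.103 in XN1, 0.562 in KN1, and 0.778 in CN4. Of the radial glia and astrocyte genes, 22 were compared with CN4, of which 1 was higher and 2 lower, with a median of −0.42 and a summed level of 112 in XN1 and 186 in CN4, beside 2.55% of all genes higher and 1.56% lower. Clu, a secreted chaperone, was higher in XN1 than in CN4 (0.464 and 0.0436), and Hes5 and Hopx were lower, with Hopx at 0.342 and 7.19.

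Of 15 EGF and FGF receptor and feedback genes, 4 of 11 were higher in XN1 than in XN4 (Erbb4, Dusp6, Dusp4, and Etv5) and 1 was lower (Errfi1, 0.207 and 5.08), beside 6% and 5.99% of all genes. Against KN1, 3 of 12 were higher (Dusp4, Spry4, and Spred1) and 2 lower (Erbb4 and Fgfr3), beside 7.65% and 7.88% of all genes. Erbb4, a neuregulin receptor, was at 0.911 in XN1, 0.027 in XN4, 11.7 in KN1, and 0.559 in CN4, which put XN1 above XN4 and below KN1. Etv5, an ETS factor induced by FGF, was at 10.9 in XN1, 0.519 in XN4, 8.02 in KN1, and 2.94 in CN4. Against CN4, 0 of 12 were higher and Fgfr3 was lower (0.0208 and 0.202), beside 2.55% and 1.56% of all genes. The summed level of the list was 42.9 in XN1 and between 19.4 and 37.9 in the other lines.

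The study tested growth of its lines with a ROCK inhibitor and on laminin or gelatin, and genes that bear on these were therefore read. Mylk, myosin light chain kinase, was at 1.23 in XN1 and 0.0867 in CN4. The kinase genes Rock1 and Rock2 were at 2.12 and 3.45 in XN1, within 4-fold of every other line. Itgb1, the common beta chain of laminin receptors, was at 15.8 in XN1, 7.92 in XN4, 3.43 in KN1, and 7.99 in CN4. Of the 20 laminin and integrin genes, Itga6, Itga7, Itgb8, and Lama5 were higher and Lama2 and Lama4 lower in XN1 than in XN4 among 15 compared, beside 6% and 5.99% of all genes. The same list had Itga7 and Itgb1 higher among 12 against KN1, where 7.65% of all genes were higher, and 0 past 4-fold of 12 against CN4, beside 2.55% higher and 1.56% lower.

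Of the other chloride intracellular channel genes, 2 were compared and neither was past 4-fold. Clic1 was at 0.816 in XN1 and between 0.385 and 1.47 elsewhere, and Clic4 at 2.87 and between 1.88 and 2.64. Of 11 Rab27 genes and effectors, Exph5 was the one captured often enough to compare, so its relatives were not compared. Of 15 cholesterol synthesis genes, 13 were compared with each line. Of these, 1, 3, and 0 were higher in XN1 than in XN4, KN1, and CN4, with 0 lower. Of 11 glycolysis genes, 9 were compared with each line, and 1, 1, and 0 were higher, with 0 lower. Of all genes, 6%, 7.65%, and 2.55% were higher and 5.99%, 7.88%, and 1.56% lower, in the same order of lines. Insig1, a regulator of sterol synthesis, was at 6.19 in XN1, 1.02 in XN4, 1.52 in KN1, and 2.55 in CN4, and the glycolytic enzyme gene Eno1, the one glycolysis gene past 4-fold, was at 4.33, 0.454, 0.322, and 3.29.

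**Figure D4:**
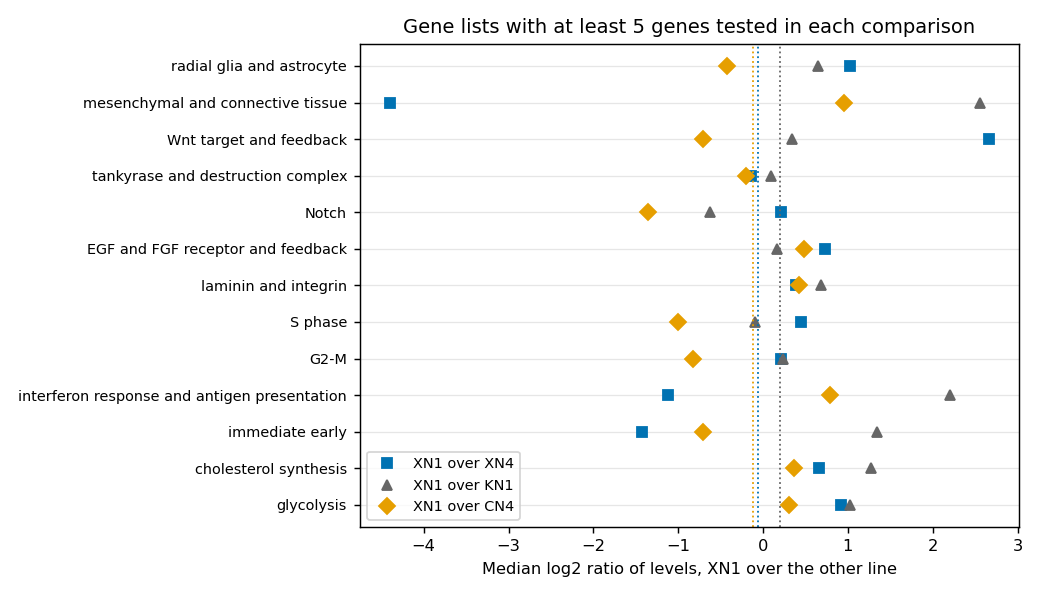
Median log2 ratio of levels of XN1 over each other line for the gene lists with at least 5 genes compared in every comparison, 1 list not shown. Dotted lines are the medians of all genes compared (−0.06, 0.19, and −0.11 for XN4, KN1, and CN4). Connective tissue genes lie at −4.40 against XN4, and Wnt target and feedback genes at 2.66 against XN4 and −0.70 against CN4.

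Within XN1, cells with and without proliferation transcripts were compared. Mki67 or Top2a, both of the G2 and M phases, was captured in 1101 of 3129 thinned XN1 cells, or 35.2% (33.5% to 36.9%), beside 30.2% in XN4, 48.7% in KN1, and 64.5% in CN4. Of 11 S phase genes, 9 were compared with XN4 and KN1 and 11 with CN4, and all 13 G2-M genes were compared with each line. In any comparison, 0 of them were past 4-fold. Of all genes, 6% were higher and 5.99% lower against XN4, 7.65% and 7.88% against KN1, and 2.55% and 1.56% against CN4. Their medians against CN4 were −1.01 and −0.83, beside −0.11 over all genes. Summed levels were 6.56 in XN1 and 14.3 in CN4 for S phase genes, and 21.8 and 42.1 for G2-M genes. Of the 70 genes higher in XN1, 32 were captured in a smaller share of the cells with Mki67 or Top2a reads, with intervals that do not overlap, and 1 in a larger share. Of all 7706 autosomal genes captured in at least 5% of XN1 cells, 11.8% were captured in a smaller share and 15.9% in a larger share by the same measure. The median ratio of shares over the 70 genes was 0.821, beside 1.01 over all of them, with a range of 0.309 to 1.47, while the median number of genes captured was 1854 in cells with these reads and 1786.5 in the rest.

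The lowest ratio of shares was that of Amigo2. This adhesion protein gene was captured in 2.09% of cells with Mki67 or Top2a reads and 6.76% of the others, Gad1, which makes GABA, in 2.54% and 7.10%, and Cd14 in 8.72% and 21.1%, chosen here for their ratios. Of the leading genes, Exph5 was captured in 50.2% and 57.6% and Igfbp3 in 92.0% and 95.2%. Pou3f1 was the one gene with a larger share in cells with these reads and intervals apart, 58.3% and 52.7%. In Otx2, at 7.99% and 6.66%, the intervals overlapped. When all lines were limited to cells without Mki67 and Top2a reads, 67 genes were higher in XN1 than in all 3 other lines and 61 lower.

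**Figure D5:**
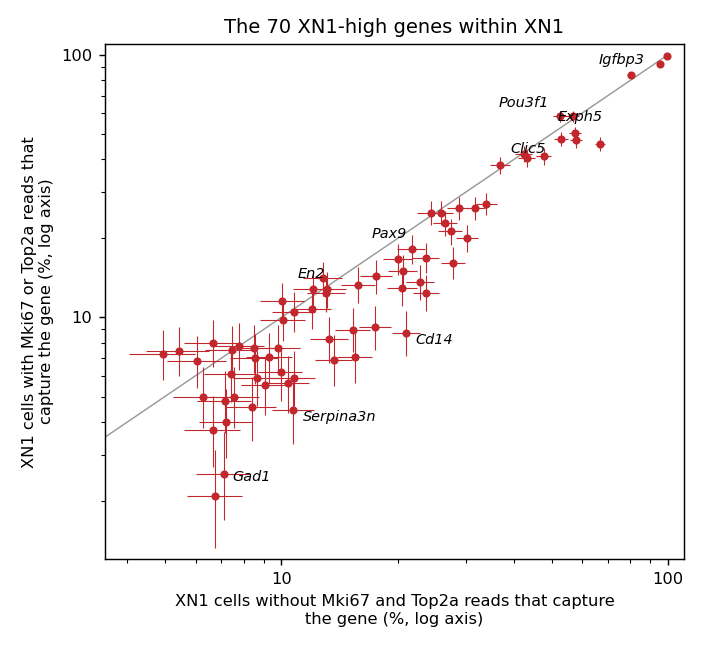
Share of XN1 cells that capture each of the 70 XN1-high genes, for cells without reads of Mki67 and Top2a (horizontal, %, log axis) and for cells with them (vertical, %, log axis). Bars are 95% Clopper-Pearson intervals and the line marks equal shares. Most genes lie below the line, Serpina3n at 10.7% and 4.45% among them, and Pou3f1 lies above it.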

How the data were processed

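Each line was 1 sample, mapped by the line name in its labels. The normalized table of each line, as the authors deposited it, holds natural log values of 1 plus the reads of a gene per 10000 reads of its cell. It covers a random draw of cells, leaves out ribosomal protein and mitochondrial genes, and was made with Seurat 4.3.0 per the labels. For XN1, XN4, and CN4, the authors also deposited counts of reads per gene and cell, from the BD Rhapsody pipeline on GRCm38 with introns counted. That table was not used here for KN1. The log values were turned back into reads, which were whole within 0.01 for 100% of values.

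Reads were summed per line in Python 3.11.15 (numpy 2.4.6, scipy 1.17.1, pandas 2.3.3) and divided by the total of the line. Of 17419 genes, 16754 were autosomal in the GENCODE annotation, and 103 names were not found there. The XN4 normalized table lacks 33 genes at the end of the alphabet that its cells capture. Genes on the sex chromosomes were left out, and doublets were neither called nor removed. Cells were thinned with seed 1. Members, gene lists, and naming rules were chosen with earlier results of these data known.

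The genes named were the 5 markers, the 12 with the largest ratio in each direction against all 3 lines, the 5 in each direction per pair, the 5 highest in XN1 that another table does not list, and list members past 4-fold or central to a list. Predicted, ribosomal protein, and mitochondrial genes were left out. Alternatives were 2 other scalings, equal cell weights, thinning, other filters and folds, and other sets of cells. The steps were tested on simulated data. A few items are not reported here.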

Additional observations from a re-analysis of the deposited data

How the results depend on the processing

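No named ratio past 4-fold changed direction under the alternatives run, while ratios near 1 did in single pairs for Apod, Cst6, Kcnb2, Nell2, Olig1, and Olig2. Requiring capture in 10% of cells gave 135 higher and 85 lower genes against CN4, and 45 and 27 against all 3 lines. Without a filter, 826 were higher and 765 lower against XN4, 1307 lower against KN1, 394 higher and 265 lower against CN4, and 258 and 491 against all 3. At 2-fold, 1093 were higher and 1303 lower against XN4, 2061 and 1548 against KN1, 627 and 536 against CN4, and 231 and 148 against all 3. With only genes listed in all 4 tables, an alternative chosen after seeing the data like those on cell indices and on cells outside the normalized table, 44 were higher and 24 lower. The share of XN1 cells with Mki67 or Top2a reads was 38.0% without thinning and 25.2% with at least 2 reads. Median-of-ratios scaling moved every log2 ratio of XN1 by 0.100 over XN4, 0.189 over KN1, and 0.170 over CN4, and gave 782 higher and 548 lower genes against KN1. Other counts stayed within 1.5 times. Of the values of named genes, 1109 moved by less than their counting interval and 298 by more. No paired analysis was possible because each line is 1 library. Depth limits genes unlisted in a table, since 3 reads correspond to a level of 0.00156 in XN1.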
